A study of Mus musculus with 2 samples.

Results

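Mouse chromosome 7 carries many genes, among them large families of neighbouring copies: odorant and pheromone receptors, zinc finger proteins, kallikreins and globins. It also holds several imprinted segments, where the maternal and paternal copies of a gene are used unequally. The members described here are all positions that the deposited replication timing table places on chromosome 7, which were 20012 of 384794 positions with a value. They were chosen by chromosome, with earlier results of the same table in view.

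The cells were mouse embryonic stem cells of the 46C line, strain 129P2/Ola, cultured with leukemia inhibitory factor. BrdU, a thymidine analogue that is built into new DNA, was given at 50 µM for 2 h, and the cells were then sorted by DNA content into early S phase and late S phase. BrdU-carrying DNA of each fraction was immunoprecipitated from 10000 cells, amplified over the whole genome and sequenced, with 1 library per fraction. The authors combined both libraries into 1 score per position, smoothed over 300 kb.

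A score above 0 was read as earlier and a score below 0 as later replication, after the order of the words in the table's name. That reading is an assumption. What the score's zero stands for, how it was scaled and which logarithm it uses, if any, is not stated in any source used here. With 1 value per position there is no replicate error, no p-value and no known read depth, so every statement below is a description of this pair of libraries.

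As background, chromosomes are copied in large domains in which many origins fire at about the same time. Early domains generally hold open, gene-rich chromatin, and late domains often lie at the nuclear lamina and hold gene-poor or silent DNA. Receptor gene families of the nose are silent in embryonic stem cells, whereas genes for housekeeping functions are active in nearly all cells.

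Sequences of 6 promoters show the range of sequence met along the chromosome: an early zinc finger gene, an early and a late imprinted gene, a late globin gene, and an early and a late odorant receptor gene. They were chosen after their scores were seen. Each runs from 250 bases before to 50 bases after the transcription start, read 5′ to 3′ on the gene's own strand, and comes from RefSeq, build GRCm38.p6. Capitals mark the dinucleotide CG, which reads the same on both strands and is the site of DNA methylation in mammals. The Zfp579 window lies at chr7:4996052-4996351 on the minus strand, Phlda2 at chr7:143502475-143502774 on the minus strand, Ube3a at chr7:59228500-59228799 on the plus strand, Hbb-bs at chr7:103827879-103828178 on the minus strand, Olfr547 at chr7:102534499-102534798 on the plus strand and Olfr669 at chr7:104938278-104938577 on the plus strand.
Zfp579: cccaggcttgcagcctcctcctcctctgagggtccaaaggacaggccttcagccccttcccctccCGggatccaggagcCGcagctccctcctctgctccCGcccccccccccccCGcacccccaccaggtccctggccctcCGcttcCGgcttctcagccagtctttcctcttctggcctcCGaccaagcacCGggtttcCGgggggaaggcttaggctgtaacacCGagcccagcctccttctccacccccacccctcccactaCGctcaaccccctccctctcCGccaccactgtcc
Phlda2: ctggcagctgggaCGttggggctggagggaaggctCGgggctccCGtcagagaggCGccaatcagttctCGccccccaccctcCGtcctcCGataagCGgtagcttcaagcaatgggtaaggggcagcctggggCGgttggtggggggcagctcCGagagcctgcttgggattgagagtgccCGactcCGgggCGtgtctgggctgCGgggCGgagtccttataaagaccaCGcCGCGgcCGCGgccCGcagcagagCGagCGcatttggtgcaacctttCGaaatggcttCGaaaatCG
Ube3a: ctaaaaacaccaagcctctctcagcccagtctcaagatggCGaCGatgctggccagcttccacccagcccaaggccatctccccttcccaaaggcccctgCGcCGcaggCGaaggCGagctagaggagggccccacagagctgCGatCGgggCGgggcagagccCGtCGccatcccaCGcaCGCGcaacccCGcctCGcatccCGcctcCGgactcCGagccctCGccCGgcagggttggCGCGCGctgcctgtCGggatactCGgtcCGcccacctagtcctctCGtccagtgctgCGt
Hbb-bs: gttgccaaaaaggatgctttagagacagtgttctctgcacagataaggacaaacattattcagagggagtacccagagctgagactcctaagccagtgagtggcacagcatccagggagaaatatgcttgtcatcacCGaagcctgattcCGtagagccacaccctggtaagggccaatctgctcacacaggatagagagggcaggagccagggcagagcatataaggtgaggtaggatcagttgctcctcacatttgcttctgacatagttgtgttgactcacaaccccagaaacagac
Olfr547: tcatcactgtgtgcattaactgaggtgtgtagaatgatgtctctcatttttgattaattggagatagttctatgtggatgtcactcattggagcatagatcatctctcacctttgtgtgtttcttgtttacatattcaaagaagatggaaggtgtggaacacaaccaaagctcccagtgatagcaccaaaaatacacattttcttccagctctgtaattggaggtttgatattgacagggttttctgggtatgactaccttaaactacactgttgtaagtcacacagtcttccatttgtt
Olfr669: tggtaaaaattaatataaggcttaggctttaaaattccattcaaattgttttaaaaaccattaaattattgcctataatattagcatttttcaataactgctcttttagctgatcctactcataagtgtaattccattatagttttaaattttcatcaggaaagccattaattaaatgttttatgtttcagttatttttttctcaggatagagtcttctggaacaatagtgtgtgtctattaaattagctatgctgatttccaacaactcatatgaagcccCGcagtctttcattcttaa

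The zinc finger gene Zfp579 had a score of 2.17 and 12 CG in its promoter window. Phlda2, an imprinted regulator of placental growth, scored 1.52 with 26 CG. Ube3a, an imprinted ubiquitin ligase gene, scored -0.95 although its window held 29 CG, the most of the 6. The adult globin gene Hbb-bs scored -1.14 with 2 CG. The odorant receptor genes Olfr547 and Olfr669, whose windows held 0 and 1 CG, lay at opposite ends of the timing range with 1.28 and -1.61. High CG content and an early score therefore did not always go together in these 6 windows.

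Mature microRNAs of 2 clusters of the chromosome are printed, a cluster in an unmeasured gap with early flanks and a late cluster. The miR-290 cluster is the main microRNA cluster of mouse embryonic stem cells, and 8 of its hairpins lay at chr7:3218626-3220841. The miR-344 family held 13 hairpins at chr7:61683124-62085310. Capitals mark the seed, bases 2 to 8, with which a microRNA recognises its targets. The sequences, miR-294-3p and miR-295-3p from the plus strand and the miR-344 members from the minus strand, come from RefSeq, build GRCm38.p6, and were also chosen after the scores were seen.
miR-294-3p: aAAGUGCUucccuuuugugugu
miR-295-3p: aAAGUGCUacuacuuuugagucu
miR-344d-3p: gAUAUAACcacugccagacuga
miR-344e-3p: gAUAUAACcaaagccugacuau
miR-344-3p: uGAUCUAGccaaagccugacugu
miR-344c-3p: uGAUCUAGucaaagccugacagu

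miR-294-3p and miR-295-3p share the seed AAGUGCU. The printed miR-344 members carry 2 seeds, AUAUAAC in miR-344d-3p and miR-344e-3p and GAUCUAG in miR-344-3p and miR-344c-3p. All 13 hairpins of the miR-344 family lay below 0, with a median of -1.10 and a range from -1.32 to -0.90. The 8 hairpins of the miR-290 cluster lie inside a gap of the table and all took the same single value, 1.38, from a position 84.5 to 86.7 kb away. The first position on the far side of that gap scored 1.61, so both flanks were early and the cluster itself was not measured. Of the 60 other hairpins annotated on the chromosome 59 had a value, and 51 of these lay above 0, beside 71.7% of its protein-coding genes.

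Chromosome 7 was among the earlier autosomes. Its median score was 0.07 (quartiles -0.999 and 1.14), and 51.7% of its positions lay above 0, against 43.1% of the whole table. It ranked 3 of the 19 autosomes on both measures, but chromosomes 5, 2 and 9 were close behind. Their medians were 0.05, 0.03 and 0.03, and their shares above 0 were 51.1%, 50.6% and 50.6%. Chromosome 11, the earliest, had a median of 0.71 with 60.5% above 0, and chromosome 3, the latest, had -0.83 with 30.8%. The middle of the 19 autosomes lay at a median of -0.33 and a share of 42.9%.

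The side of 0 on which the chromosome's own median falls depends on how positions are weighted. Taking only 1 position per 300 kb left 446 positions, of which 213, or 47.8%, lay above 0, with a median of -0.06. The exact binomial 95% interval, for the sampling of positions only, was 43.0 to 52.5%. That interval is too narrow, because neighbours at this spacing often share a domain. Median domain lengths were 0.868 Mb early and 1.17 Mb late. Scores split into a late and an early class. Their histogram peaked at -1.35 and at 1.65, 28.9% of positions exceeded 1, 24.98% were below -1 and 20.9% lay within 0.5 of 0. The rank for that intermediate share was 7 of 19, between 32.1% on chromosome 13 and 15.1% on chromosome 16.

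**Figure D1:**
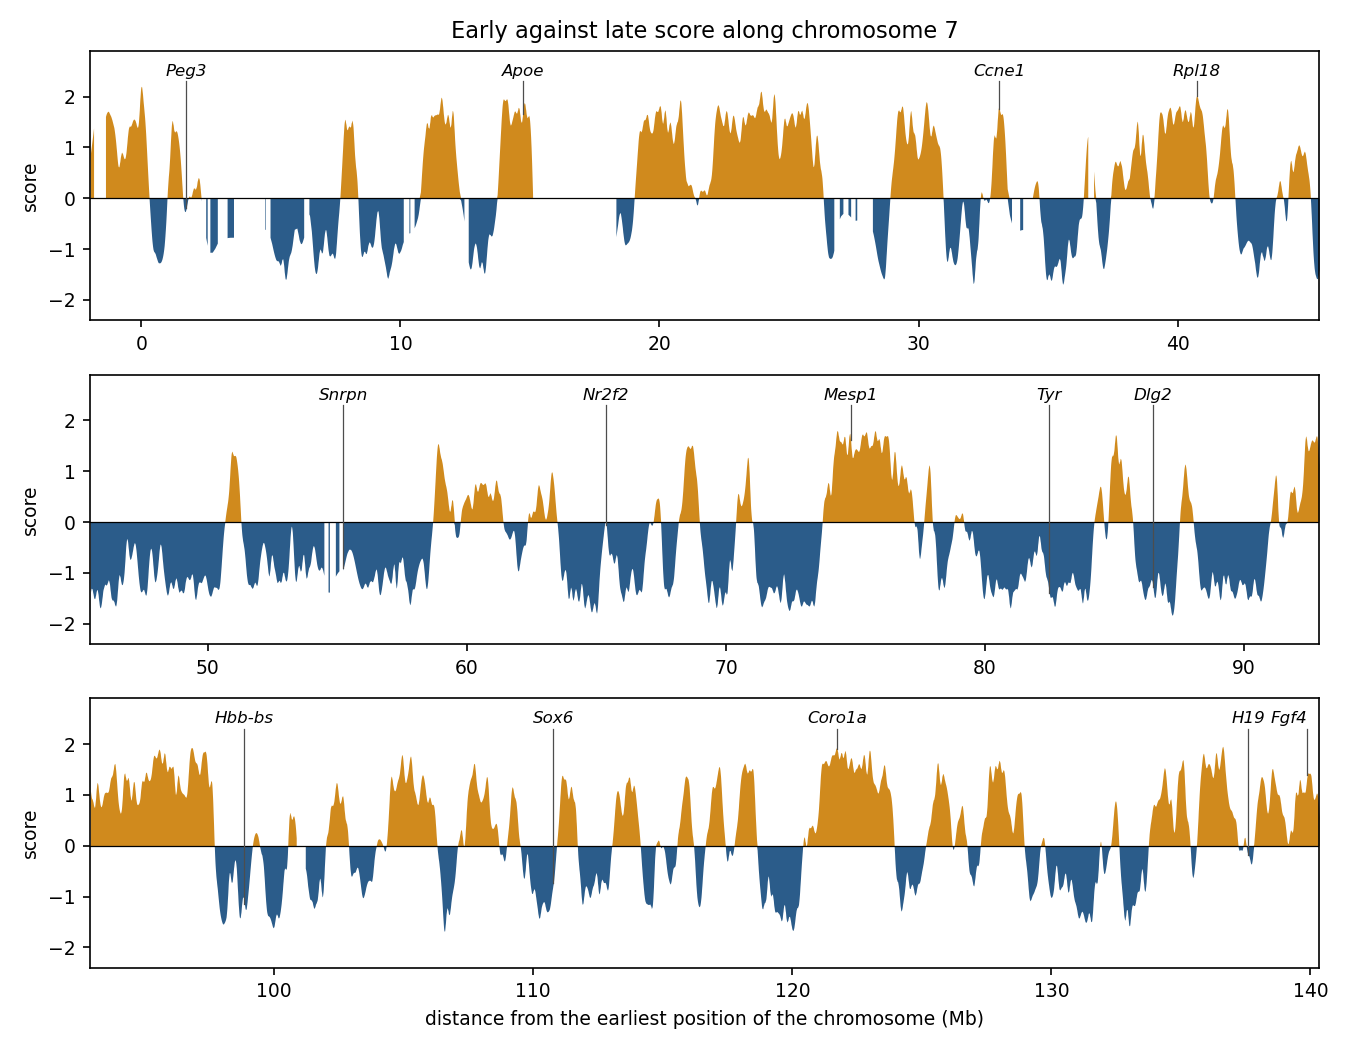
The smoothed score (vertical axis, no unit) is plotted against the distance in Mb from the earliest position of chromosome 7, in 3 consecutive stretches, with early values in orange, late values in blue and named genes marked by lines. The record peaks at 2.20 at distance 0, runs late for most of the middle stretch, and is interrupted by blank gaps in the first stretch.

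Along the chromosome, early and late territory alternated unevenly. In steps of 10 Mb, the earliest over measured positions was that from 20 to 30 Mb, with 90.9% above 0 and a median of 1.48. Gaps of 1.03 and 2.03 Mb left part of it unmeasured, and 219 of its 285 protein-coding genes had a value. Scores at the edges of these gaps were 0.07, -0.43, -0.63 and -0.75. The final step, from 140 Mb to the end, followed with 87.7% and a median of 1.00. The first step had 76.4% and 0.87, over only 487 positions. The latest was the step from 50 to 60 Mb, with 8.21% above 0, a median of -1.09 and only 22 protein-coding genes. The step from 100 to 110 Mb held the most genes, 314, of which 124 lay above 0, while 59.1% of its positions did. That step contains the great odorant receptor clusters described below.

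The earliest position of the chromosome, and of the whole table, lay at 4979969 inside Sbk3, a gene for a kinase of the SH3-binding family, with a score of 2.20. Positions above 2 were rare: 190 in the whole table, of which 45 were on chromosome 7. Of the table's 1119 positions above 1.9, 165 were on the chromosome. Around the maximum 16 positions in a row exceeded 2, from chr7:4933714 to 5025764, a stretch of 92.1 kb and thus narrower than the smoothing.

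The peak sat among short zinc finger genes. Of the 20 protein-coding genes within 150 kb, Sbk2 and Sbk3 scored 2.19, Zfp579 2.17, and Fiz1, a zinc finger gene whose product binds the Flt3 receptor, 2.11. Zfp524 had 2.09, Zfp865 2.03, Zfp784 1.96, Zfp628 1.91 and Zfp580 1.89. The score declined on both sides of this group. Toward lower coordinates it passed Isoc2a at 1.65 and Shisa7 at 1.40, and toward higher coordinates it passed the splicing factor gene U2af2 at 1.77, the endocytosis gene Epn1 at 1.67 and Rasl2-9 at 1.41. The peak was not at the centre of its domain, chr7:3593973-5261465. It lay 281 kb from the upper edge and 1386 kb from the lower, which borders the gap that holds the miR-290 cluster.

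Other high peaks were spread over the chromosome. Actn4, an actin crosslinker gene, held a peak of 2.10 at 28897639, and a peak of 2.02 at 45723753 lay in Fam83e beside the ribosomal protein gene Rpl18. Arhgap35, a gene for a GTPase-activating protein, had 1.99 at 16550950, the endocytic adaptor gene Ap2a2 1.96 at 141587646 and the kinase gene Dmpk 1.95 at 19086305. Clpb and the receptor kinase gene Axl followed with 1.93 each. These peaks fell within genes or beside them, and the 3 highest of the chromosome, in Sbk3, Actn4 and Fam83e, had 20, 14 and 22 protein-coding genes within 150 kb.

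The latest positions lay in genes of another kind or far from any. The lowest score, -1.83 at 92205536, was inside Dlg2, a very long gene for a synaptic scaffold. At 69983529 the score was -1.79, with no protein-coding gene within 150 kb, and the nearest was the transcription factor gene Nr2f2, 368 kb away. At 77418436 it was -1.74, 294 kb from Agbl1. Vmn2r74, a pheromone receptor gene, and Nell1, a secreted glycoprotein gene, each held a low point of -1.69.

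Runs of a single sign of at least 300 kb were counted as domains, and chromosome 7 had 91 of them, 47 early and 44 late. Early domains covered 61.9 Mb and held 1335 protein-coding genes, or 21.6 per Mb. Late domains covered 66.9 Mb and held 477, or 7.12 per Mb. Early domains had a median of 0.868 Mb (quartiles 0.615 and 1.63 Mb) and late ones 1.17 Mb (0.657 and 1.77 Mb). This order turned round without a minimum run, at 0.684 Mb early and 0.662 Mb late, and with the zero at the autosomal median of -0.30, at 1.095 Mb early and 0.926 Mb late. A further 35 runs were shorter than 300 kb and were not read as domains. There were 6.39 domains per 10 Mb, rank 4 of the 19 autosomes, between 8.67 on chromosome 13 and 4.80 on chromosome 11. On chromosome 11 the median early domain was longer, at 1.57 Mb, and on chromosome 3 shorter, at 0.684 Mb.

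The longest early domain, chr7:96632934-102666391, measured 6.03 Mb and had a median of 1.29. It includes Nup98, a nuclear pore gene, at 1.66, Rrm1, the large subunit of ribonucleotide reductase, at 1.18, and Rps3, a ribosomal protein gene, at 0.98. Its longest genes were less early, with Gab2, a signalling adaptor gene, at 0.52, Uvrag, an autophagy gene, at 0.68 and Fchsd2 at 1.06. At its upper end the domain reached into an odorant receptor cluster, from Olfr543 at 1.16 through Olfr547 at 1.28 to Olfr555 at 0.08.

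The second longest, chr7:26499988-31289705, measured 4.79 Mb and was earlier, with a median of 1.57. It holds the zinc finger genes between Zfp607b at 1.30 and Zfp146 at 1.54, and the calcium release channel gene Ryr1 at 1.74. Sipa1l3, a gene of the Rap GTPase pathway, was its earliest long gene at 1.99, and the sperm glycolysis gene Gapdhs had 1.69. At its lower end the score of the cytochrome P450 genes was near 0, as given below. The next, chr7:78700647-82242290, measured 3.54 Mb with a median of 1.42 and carried the mesoderm regulator genes Mesp1 and Mesp2 at 1.62 and 1.49 and the helicase gene Blm at 1.47.

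The longest late domain, chr7:56263749-63652836, measured 7.39 Mb, had a median of -0.99 and held 16 protein-coding genes. It begins within the pigment gene Oca2, at -0.58, and takes in GABA receptor genes and the imprinted Snrpn segment. It ends within Otud7a, a deubiquitinase gene, at -0.26. The second, chr7:50117220-55614159, measured 5.50 Mb with a median of -1.23 and included Nell1 at -1.47, Luzp2 at -1.44 and Gas2, a growth arrest gene, at -0.60. A single early domain of 0.621 Mb lies between them, with Herc2, a ubiquitin ligase gene, at 0.97. The third, chr7:84160367-89187025, measured 5.03 Mb with a median of -1.18 and held 42 genes. Among them were 15 vomeronasal type 2 receptor genes between -1.69 and -0.43, the pigment enzyme gene Tyr at -1.40, the glutamate receptor gene Grm5 at -1.27 and Nox4, an oxidase gene, at -1.04.

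Neighbouring domains met at 69 boundaries, and at 54 of these the medians on the 2 sides differed by at least 1.5. The median change was 1.94 and the largest 2.87. At 53 of the 54 the score could be followed from -0.5 to 0.5, which took a median of 167 kb (quartiles 150 and 247 kb). The same passage took a median of 178 kb on chromosome 11 and 167 kb on chromosome 3. Of the 53 passages 45 were narrower than 300 kb, the width of the smoothing, so these widths describe the smoothed curve and not the forks.

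The steepest passage, 98.2 kb from 102619930 to 102718125, was the drop from the longest early domain into the odorant receptor and globin domain. Odorant receptor genes lay before and along it: Olfr552 and Olfr553, just before its start, scored 0.92 and 0.76, and Olfr554 and Olfr555, within it, 0.34 and 0.08. Trim68, a ubiquitin ligase gene farther along the passage, scored -0.21. The second steepest, 103 kb from 35878426 to 35981619, lay beyond Zfp507, which scored 1.01. The third, 109 kb from 13272950 to 13381898, ran through Lig1, the DNA ligase gene of replication, which scored 0.39.

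Chromosome 7 also had the most unmeasured sequence of the autosomes. Its 24 gaps of over 100 kb added up to 9.43 Mb, against 0.990 Mb for the median autosome, and 20 of them lay below 50 Mb. In 20 gaps the flanking positions on both sides were below 0, and in 2 they were both above. The gaps fell on repeated gene families. Of 85 protein-coding genes left without a value, 53 were vomeronasal type 1 receptor genes, 5 type 2 receptor genes, 4 androgen-binding protein genes and 17 predicted genes with no given name.

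The largest gap, chr7:21272093-23297404, covered 2.03 Mb with 40 vomeronasal type 1 receptor genes. Another of 1.03 Mb, chr7:20081223-21110977, held 27 of them, and a gap of 1.203 Mb at chr7:8536308-9738930 held 4 type 2 receptor genes. A gap of 0.604 Mb at chr7:32594741-33198871 held 6 androgen-binding protein genes. The longer of the 2 gaps with early flanks, 0.460 Mb at chr7:3134134-3593973, held the calcium channel subunit genes Cacng6, Cacng7 and Cacng8 besides the miR-290 cluster. The other, 0.224 Mb at chr7:41511850-41736139, lay between scores of 1.21 and 0.54 and held Gm6871 and the zinc finger gene Zfp788. The treatment of reads that match more than a single copy is not stated in any source used here, and its part in these gaps was not tested.

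The chromosome's gene-rich label was borne out with all genes counted. It carried 2025 protein-coding genes, or 14.2 per Mb, the highest density of the 19 autosomes, ahead of 13.5 on chromosome 11 and a median of 7.86. Odorant and vomeronasal receptors made up 415 of them, the most on any autosome. Without them the density was 11.3 per Mb and ranked 2, behind 12.8 on chromosome 11.

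Of the 1940 protein-coding genes with a value 1391, or 71.7%, lay above 0, beside 73.5% in the whole table, and their median was 1.06. That share, close to the background, joined gene groups that lay far apart. The 357 receptor genes with a value had a median of -0.71, and 68 of them, or 19.05%, lay above 0. The other 1583 genes had a median of 1.35, and 1323 of them, or 83.6%, lay above 0. The whole table without receptor genes stood at 77.4% with a median of 1.11. The rank of chromosome 7 for genes outside the receptor families was 5 of 19.

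**Figure D2:**
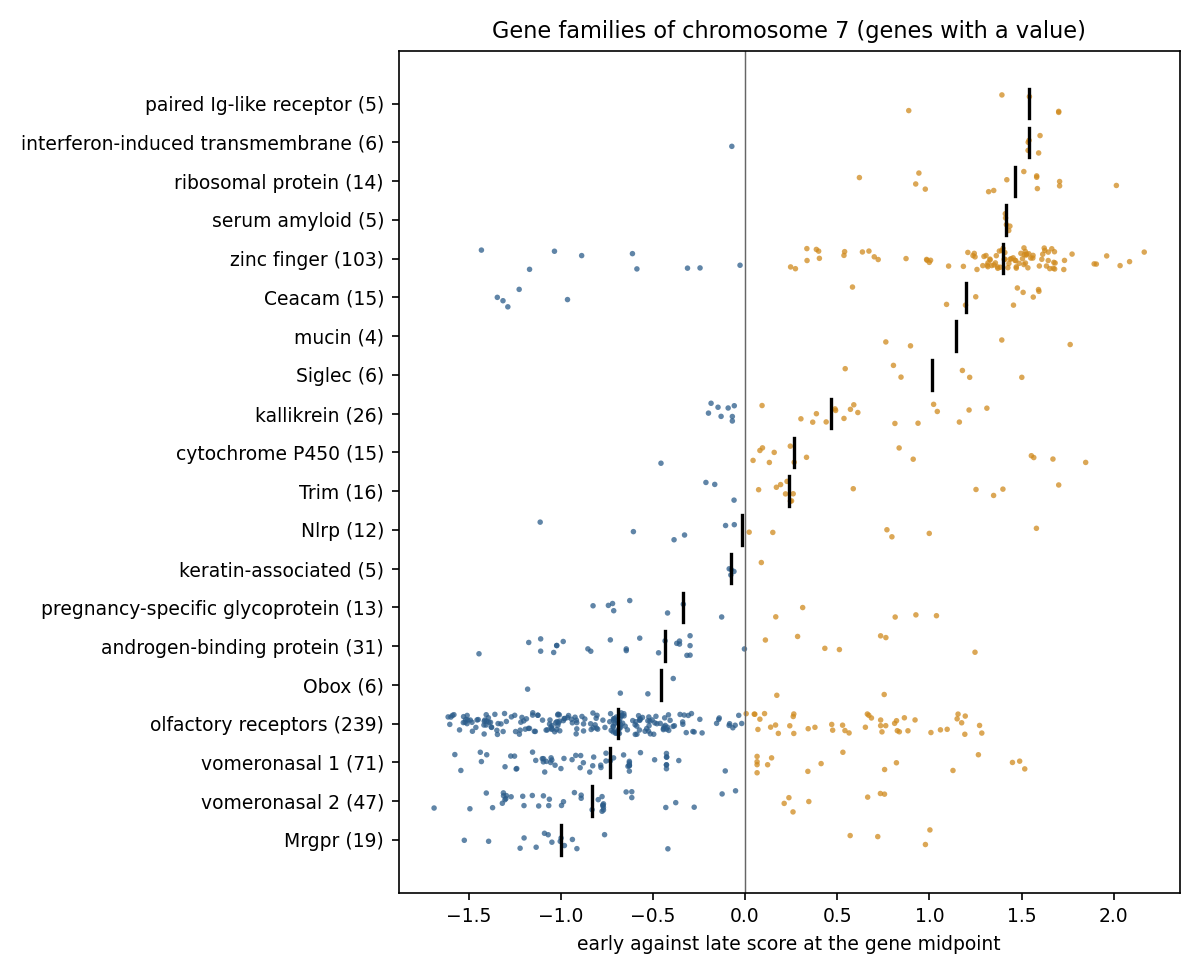
Each point is a protein-coding gene of chromosome 7 with a value, placed by its score on the horizontal axis (no unit, early above 0 in orange, late below 0 in blue) and grouped by family on the vertical axis with small vertical scatter; black bars are family medians and numbers in brackets are genes. Paired immunoglobulin-like receptor genes have the highest family median, 1.54, and Mrgpr genes the lowest over genes, -0.998, or -0.117 over 4 places.

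The zinc finger family, whose members mostly bind DNA and many of which silence transposons, was the largest early family. Of 103 genes named Zfp, Zscan, Zik or Zim with a value 94 lay above 0, with a median of 1.40 and a range from Zik1 at -1.43 to Zfp579 at 2.17. They lay at 27 places, counting members within 300 kb as a single place, and 23 of these were above 0. The group around the chromosome's peak had a median of 2.00 over 6 genes. A cluster of 15 genes at chr7:29768552-30169775 was early throughout, with a median of 1.56 and its lowest member, Zfp27, at 1.43. Others were the 14 genes at chr7:24081877-25227876, median 1.32 with Zfp180 lowest at 0.70, the 9 genes at chr7:27674661-28379228, median 1.37, and the 10 genes at chr7:127233061-127885996, median 1.51 with Zfp747 lowest at 1.45.

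A single zinc finger cluster of 5 or more genes had all its values below 0. Its 5 members at chr7:10487224-11402318 were Zik1 at -1.43 and 4 Zscan4 genes: Zscan4d at -0.89, Zscan4b at -0.61, Zscan4c at -0.59 and Zscan4f at -0.31. Zscan4f lies inside a gap, and its value came from a position 46.2 kb away. With the zero at the autosomal median it scored -0.008. Zscan4 genes are known for brief bursts of expression in a small fraction of mouse embryonic stem cells and for expression in the cleavage-stage embryo. They lay within the late domain chr7:9738930-12640470, among vomeronasal type 1 receptor genes such as Vmn1r68 at -1.57. The other 4 zinc finger genes below 0 were Zfp551 at -1.17, Zfp606 at -1.03, Zim1 at -0.24 and Zfp536 at -0.03. Zim1 and Zfp536 turn positive when the zero is put at the autosomal median of -0.30.

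Odorant receptor genes, which are each expressed in a small share of olfactory neurons, were mostly late. All 239 had a value, 45 lay above 0, and the median was -0.69, from Olfr669 at -1.61 to Olfr547 at 1.28. The largest cluster, 126 genes at chr7:102476773-105369317, had a median of -0.94 with 13 above 0. The cluster of 67 genes at chr7:106677534-108894405 had a median of -0.60 with 11 above 0, between Olfr495 at -1.02 and Olfr716 at 0.74. All 15 genes at chr7:86268730-86695384 were below 0, with a median of -1.03.

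Smaller odorant receptor clusters varied. All 8 genes at chr7:6439902-6570919 lay above 0, with a median of 0.74 and Olfr1350 lowest at 0.05. The pair Olfr520 and Olfr521 scored 0.83 and 0.86 inside the longest early domain, and the pair Olfr290 and Olfr291 scored -1.48 and -1.19. The 19 genes at chr7:140162010-140705191 had a median of 0.11 and spread from Olfr532 at -0.59 to Olfr541 at 1.15, with 11 above 0. Counted as places, 3 of 9 odorant receptor places were above 0.

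Vomeronasal receptors, which detect pheromones, were split into type 1 and type 2. Of 124 type 1 genes only 71 had a value, since the others lay in gaps. Of these 16 were above 0, with a median of -0.73 (-0.48 over 10 places), from Vmn1r68 at -1.57 to Vmn1r86 at 1.52. Some of the 71 also lay in gaps and took the value of a gap's edge. Vmn1r91, Vmn1r240, Vmn1r93 and Vmn1r94 thus all took 0.07 and count among the 16. With only positions within 25 kb used, the type 1 median was -0.826. The 52 type 2 genes gave 47 values, 7 above 0, with a median of -0.83 from Vmn2r74 at -1.69 to Vmn2r57 at 0.76. Some of these 47 took edge values too, and within 25 kb their median was -0.94. The type 1 cluster next to the chromosome's peak crossed from early to late: Vmn1r55 scored 1.27, Vmn1r56 0.76, Vmn1r57 0.53 and Vmn1r58 -0.94. It returned to early through Vmn1r64 at -0.78 and Vmn1r65 at 0.34. Mrgpr genes, receptors of itch-sensing neurons, had 4 of 19 above 0 and a median of -0.998, which became -0.117 when members within 300 kb counted as a single place, with 2 of 4 places above 0. All 15 in the cluster chr7:47234919-48643801 were below 0, from Mrgprx1 at -1.52 upward, and the 4 above 0, led by Mrgprg at 1.00, lay at other places.

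Several families lay across a change in timing. The kallikreins, serine proteases of skin, prostate and other secretory tissues, formed a single cluster of 26 genes at chr7:43680880-44229622, with a median of 0.46. Of these 18, or 69.2%, lay above 0, near the 71.7% of all protein-coding genes of the chromosome. Along the cluster the score fell and rose again. Klk14 began at 1.02, Klk9 had 0.54 and Klk4 0.09, Klk1b26 had the lowest value, -0.20, and Klk1b24 had 0.94 before Klk1 closed the cluster at 1.31. The 8 members below 0 lay between -0.20 and -0.06, so all of them turn positive with the zero at the autosomal median of -0.30.

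The cytochrome P450 genes of the Cyp2 group, enzymes of drug and steroid metabolism, showed a similar dip. In their cluster of 13 at chr7:25802469-27158564 all lay above 0. Cyp2s1 stood at 1.85 on the lower side, Cyp2a4 at 0.04 and Cyp2g1 at 0.08 in the middle, and Cyp2f2 and Cyp2t4 at 1.55 and 1.67 on the upper side. Elsewhere the vitamin D hydroxylase gene Cyp2r1 scored -0.46, the lowest of the 15, and Cyp2e1 scored 1.57.

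Androgen-binding protein genes, which encode salivary and lacrimal proteins of mice, had deeper dips within their cluster. Of 35 genes 31 had a value, 7 above 0, with a median of -0.43. Some of the 31 lay in gaps and took the value of a gap's edge, and within 25 kb the median was -0.52. The cluster opened with Scgb2b1 at 0.29, fell to Scgb2b6 at -1.17 and rose to Scgb2b10 at -0.30. It fell again to Scgb2b21 at -1.44 and closed with Scgb1b30 at 1.25. Cell adhesion genes of the Ceacam group were divided by place: Ceacam15 and Ceacam9 scored 1.51 and 1.48, Ceacam13 -1.34 and Ceacam16 1.59. Of the 15 Ceacam genes 10, or 66.7%, lay above 0, near the 71.7% of all protein-coding genes of the chromosome.

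Pregnancy-specific glycoprotein genes, which are expressed in the placenta, lay beside the Ceacam genes and had 5 of 13 above 0, with a median of -0.33, or 0.20 when counted as 2 places. Psg18 was lowest at -0.82, and from there the values climbed along the cluster, through Psg25 at -0.72, Psg23 at -0.42 and Psg20 at -0.13 to Psg22 at 0.17 and Psg17 at 1.04. Obox genes, homeobox genes of oocytes and early embryos, followed a similar course over 6 genes. Obox7 scored -1.18, Obox2 -0.68, Obox1 -0.53, Obox3 -0.39, Obox5 0.17 and Obox6 0.75. Nlrp genes, many of them expressed in oocytes, had 6 of 12 above 0 from Nlrp4b at -1.11 to Nlrp6 at 1.58.

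Other families were uniformly early. The 14 genes for ribosomal proteins were all above 0, between Rps15a at 0.62 and Rpl18 at 2.01, and their median was 1.47. These genes are active in every cell and lay at 12 separate sites more than 1 Mb apart. All 5 paired immunoglobulin-like receptor genes (median 1.54), all 5 serum amyloid genes (1.42), all 6 Siglec genes (1.01) and all 4 mucin genes (1.15) were above 0, each group being expressed in blood, liver or epithelia. Of the interferon-induced transmembrane genes 5 of 6 were above 0, and Ifitm10 stood at -0.07. Keratin-associated genes, of the hair shaft, lay near 0 with a median of -0.07, from Krtap5-5 at -0.09 to Krtap5-2 at 0.09, and the 4 below 0 turn positive with the zero at the autosomal median. Genes in a cluster share smoothed values, so these counts do not represent independent measurements.

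The beta-globin locus, whose genes encode chains of embryonic and adult haemoglobin, was late in these cells. The 5 genes with a value, at chr7:103812524-103853207, scored -1.10 for Hbb-bt, -1.14 for Hbb-bs, -1.17 for Hbb-bh2, -1.198 for Hbb-bh1 and -1.22 for Hbb-y. The locus spans 40.7 kb and 7 positions, far less than the smoothing, so the order among its genes is the slope of a curve and not a measured difference. It lay in a late domain of 1.46 Mb, chr7:102671842-104132192, with a median of -1.02. Of the 86 protein-coding genes in that domain 77 were odorant receptors, and 4 were neither receptors nor globins. The entries Hbb-b1 and Hbb-b2 were not used here.

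The globin genes did not mark the lowest point of their domain, which was -1.54 at 103011091. They lay 1.14 Mb from its lower edge and 0.279 Mb from its upper edge. Beyond that edge a short rise, chr7:104138237-104408354, reached 0.26 over 270 kb and held 14 protein-coding genes, 8 of them Trim genes of antiviral defence. Trim5 scored 0.26, Trim34a 0.25 and Trim30c 0.07, and Trim30a and Trim30d beyond it -0.06 and -0.16. The rise was shorter than the 300 kb minimum and is not counted among the domains.

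Imprinted genes did not share a timing class. Of 33 with a value 20 lay above 0, and the median was 0.81, but 16 of them lie in the Kcnq1 segment. Counted as places, 3 of 8 lay above 0 and the median was -0.41. The score merges both parental copies, so a difference in timing between them could not be seen. The Kcnq1 segment, which is controlled by the long RNA Kcnq1ot1, was early at all 16 listed genes, with a median of 1.24.

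Within that segment the score had a dip and a crest. Th, the enzyme of catecholamine synthesis, scored 0.69, Ascl2, a trophoblast regulator, 1.00, and Cd81 1.33. Over the body of the potassium channel gene Kcnq1 the score fell from 1.36 at its lower end to 0.64 at 143325811 and returned to 1.15 at its upper end, and Kcnq1ot1 inside it scored 0.87. Cdkn1c, a cell cycle inhibitor gene, had 1.35, Slc22a18 1.496, Phlda2 1.52 and Nap1l4 1.49. Beyond them the values went down through Cars at 1.35 and Osbpl5 at 1.01 to the cholesterol enzyme gene Dhcr7 at 0.81.

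The neighbouring Igf2-H19 segment was on the other side of 0. Igf2, the fetal growth factor gene, scored -0.32, the insulin gene Ins2 -0.35 and the noncoding RNA gene H19 -0.18. With the zero at the autosomal median H19 scored 0.13 and changed sides, while Igf2 and Ins2 did not. They lay in a late run of 264 kb, chr7:142503538-142767881, with a lowest value of -0.36. From H19 to Cdkn1c the distance was 0.883 Mb and the score rose by 1.53. The early domain that followed, chr7:142791090-145321106, measured 2.53 Mb and had a median of 1.01.

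The Peg3 segment also lay close to 0. Zim1 scored -0.24, Peg3, a zinc finger gene of growth and maternal behaviour, -0.18, Usp29 0.03 and Zim3 0.16. All 4 lie above 0 when the zero is moved to the autosomal median, where Zim1 has 0.06 and Peg3 0.12. The late run through Zim1 and Peg3 measured 195 kb, chr7:6583088-6778496, had a lowest value of -0.26 and ended within Usp29. The Snrpn segment, lost or silenced in Prader-Willi and Angelman syndromes in humans, was late at all 8 listed genes under both zero points.

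In that segment Atp10a scored -0.99, Snurf -0.99, Ube3a -0.95 and Snrpn -0.90. Ndn had -0.80, Mkrn3 -0.80, Magel2 -0.79 and Peg12 -0.70. The GABA receptor genes next to it were also late, with Gabra5 at -0.76 and Gabrg3 at -0.53. Of the imprinted genes outside these segments, Ampd3 scored 1.21 and Inpp5f 1.15.

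**Figure D3:**
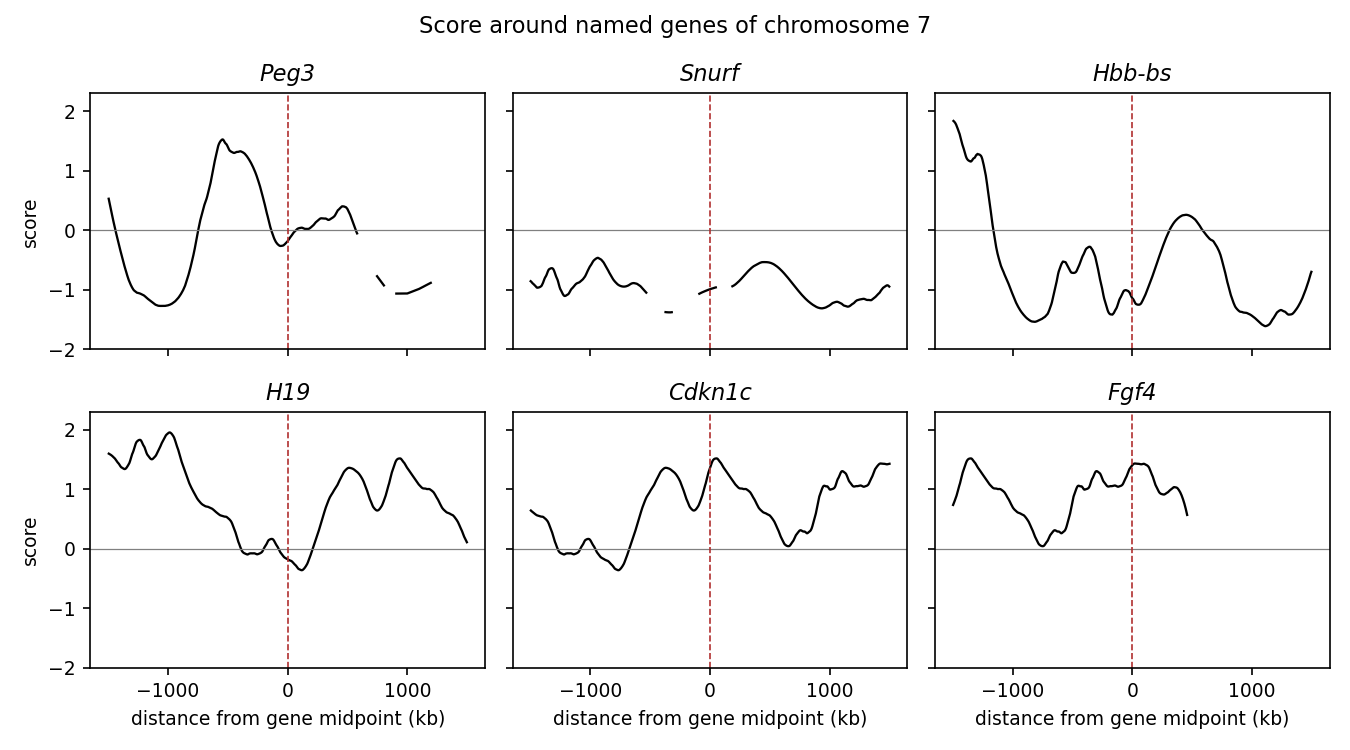
Each panel plots the score (vertical axis, no unit) against the distance in kb from the midpoint of the named gene (dashed line), over 1500 kb on each side; breaks in the line are gaps of over 100 kb. Peg3 and H19 sit close to 0 beside early stretches, Snurf and Hbb-bs sit near -1, and Cdkn1c and Fgf4 sit at 1.35 and 1.40.

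Gene groups near the end of the chromosome and around Apoe were early. The growth factor genes Fgf3, Fgf4 and Fgf15 scored 1.35, 1.40 and 1.43, and the cyclin gene Ccnd1 beside them 1.42. Fgf4 is expressed in embryonic stem cells and supports their exit from pluripotency. The other members were Fadd, a cell death adaptor gene, at 1.29, Ppfia1 at 1.11, Ano1 at 1.05 and the cortactin gene Cttn at 1.02. Shank2, a synaptic scaffold gene of 448 kb, was the lowest of the 9 with 0.29. The apolipoprotein cluster rose along its length from Apoc2 at 1.56 through Apoc4 at 1.58, Apoc1 at 1.62 and Apoe at 1.66 to the mitochondrial import gene Tomm40 at 1.73.

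Of 40 landmark genes listed for the chromosome 32, or 80%, lay above 0, with a median of 1.42. That share is near the 71.7% of all protein-coding genes of the chromosome and the 83.6% of those outside the receptor families, so the list does not stand apart, and its genes are given by function as single values. Of genes for replication and the cell cycle, Ccne1, a cyclin of S phase entry, had 1.75, Pold1, a DNA polymerase subunit gene, 1.43, Blm 1.47, Rrm1 1.18, Wee1, a mitotic entry kinase gene, 1.42, Bub3, a spindle checkpoint gene, 0.68, and Lig1 0.39. Mki67, which encodes the proliferation marker Ki-67, was late at -0.70.

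Several listed genes are known from embryonic stem cells and early development. Utf1, a chromatin factor of pluripotent cells, scored 1.49, the Polycomb gene Eed 1.48, Tead2, a Hippo pathway transcription factor gene, 1.67 and Prmt1, an arginine methyltransferase gene, 1.75. Chd2, a chromatin remodeller gene, had 1.49 and the corepressor gene Ctbp2 1.44. Tbx6, another mesoderm regulator, was early at 1.71, as were Mesp1 and Mesp2. Close to it Mapk3, a kinase gene of broad expression, scored 1.75 and Coro1a, an actin regulator gene, 1.91.

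Lineage genes took a range of values. Cebpa and Cebpg, transcription factor genes of fat and blood, scored 1.16 and 0.91, Pou2f2, of B cells, 1.56, Tgfb1 1.58, and the cell death gene Bax 1.70. Itgam, an integrin gene of myeloid cells, had 1.29, Picalm, an endocytic adaptor gene, 1.19, and the Wnt receptor gene Fzd4 0.68. Growth factor receptor genes were lower, with Fgfr2 at 0.29 and Igf1r at 0.21, and the obesity gene Tub had 0.14. Near or below 0 were Ebf3 at -0.01, Nr2f2 at -0.06, the neuronal adhesion gene Tenm4 at -0.12, the spindle orientation gene Insc at -0.37 and the cartilage and muscle regulator Sox6 at -0.72. Ebf3, Nr2f2 and Tenm4 turn positive with the zero at the autosomal median. Dlg2 and Tyr were the latest of the list at -1.27 and -1.40.

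Long genes of the chromosome tended to be late. Of 23 genes of at least 300 kb 5 lay above 0, with a median of -0.72, and over all chromosomes 112 of 557 did, with a median of -0.92. The 5 were Sbf2 at 0.90, Kcnq1 at 0.81, Fam189a1 at 0.49, Nav2 at 0.45 and Shank2. The lowest was Ntrk3, a neurotrophin receptor gene, at -1.64. Other low ones were Galnt18 at -1.29, Agbl1 at -1.28, Hs3st4 at -0.95, Dock1 at -0.95, Adamts17 at -0.88 and Adam12 at -0.65, while Prkcb, a protein kinase gene, stood at -0.30.

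Such genes can span a timing boundary, and 8 of the 23 had ends of opposite sign. Dlg2, of 1973 kb, scored 0.86 at its lower end, -1.27 at its midpoint and -0.37 at its upper end. Nell1 went from 0.64 at its lower end to -1.62 at its upper end, Otud7a from -1.27 to 0.90, Sox6 from -1.25 to 1.23, and Me3, a shorter gene, from -0.31 to 1.24. Tenm4 was early at both ends, 0.85 and 0.70, and -0.12 in the middle. A single value at the midpoint therefore describes such genes poorly. Over the whole chromosome 39 protein-coding genes had ends of opposite sign.

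In windows of 1 Mb the score rose with the number of protein-coding genes, up to a point. None of the 8 windows without a gene lay above 0 (median -1.18), nor did most of those with 1 to 4 genes, 5 of 35 (-0.82). With 5 to 9 genes 15 of 30 lay above 0, and with 10 to 19 genes 23 of 30 (0.89). With 20 or more it was 23 of 34 (0.83), beside 84.5% of such windows in the whole table and 40.4% of all its windows. On chromosome 11 30 of 31 such windows lay above 0, with a median of 1.54. Across the 137 windows the Spearman rank correlation was 0.68, a description across neighbouring windows that share smoothing.

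Receptor genes occurred in most of the late gene-rich windows of chromosome 7, in varying numbers. Of the 11 windows with at least 20 genes and a mean below 0, 10 held at least 5 odorant or vomeronasal receptor genes, and the remaining window held 11 pregnancy-specific glycoprotein genes. In the 10 windows receptors made up from 5 of 21 to 19 of 20 genes. Of the 11 windows 4 had means between -0.16 and -0.0015, which turn positive with the zero at the autosomal median of -0.30. The most crowded of them, chr7:103000001-104000000, had 56 genes, of which 49 were odorant receptors, and a mean of -0.99. Among the 21 windows with at least 20 genes of other kinds, 20 lay above 0, with a median of 1.49. Among the 19 windows with 5 or more receptor genes, 4 lay above 0, with a median of -0.34.

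**Figure D4:**
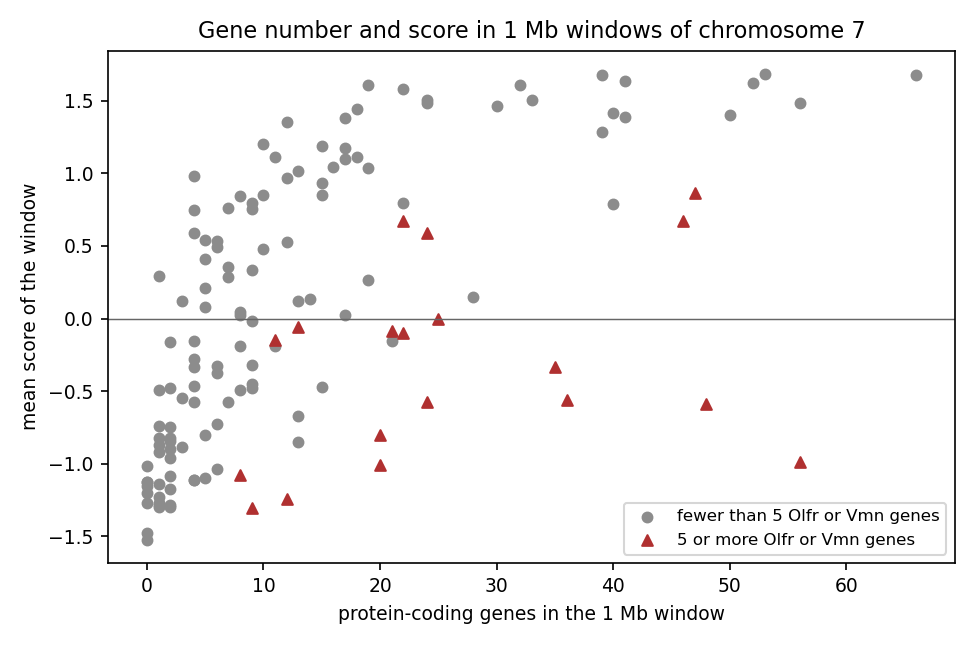
Each point is a 1 Mb window of chromosome 7, placed by its number of protein-coding genes (horizontal axis) and its mean score (vertical axis, no unit); red triangles are the 19 windows with 5 or more odorant or vomeronasal receptor genes and grey circles the others. Grey windows climb with gene number, while most triangles stay below 0, and the one with 56 genes lies at -0.99.

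Promoter sequence, which had no part in the choice of the chromosome, differed between early and late genes. The motif searched was CG in the 300 base window defined above, for the protein-coding genes with a promoter in the RefSeq table, 1742 in all and 1661 with a score. Genes with a score above 1 had a median of 15 CG, those between 0 and 1 had 7, those between -1 and 0 had 2 and those below -1 had 1. At least 10 CG were found in 65.2%, 45.6%, 17.6% and 6.41% of these groups, and in 44.0% of all 27025 promoters of the table. That last set is a wider one, not limited to chromosome 7 or to protein-coding genes.

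Receptor genes made up part of that gradient. The 316 odorant and vomeronasal promoters had a median of 1 CG, and 1 of them, or 0.316%, had at least 10. Without them the groups had medians of 16, 12, 3 and 2 CG, and 66.2%, 52.8%, 34.6% and 17.5% of their promoters held at least 10. The Spearman rank correlation between score and CG number was 0.51 over all 1661 genes and 0.27 over the 1345 without receptors. These are descriptions across genes, which share smoothed scores within clusters.

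Families differed in promoters as well as in scores, but not always together. Ribosomal protein promoters had a median of 23 CG, those of the Fgf4 group 22 and zinc finger promoters 13.5. Kallikrein, Siglec and paired immunoglobulin-like receptor promoters had a median of 2 CG each although most of these genes were early. The late Snrpn segment had a median of 11.5 CG.

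**Figure D5:**
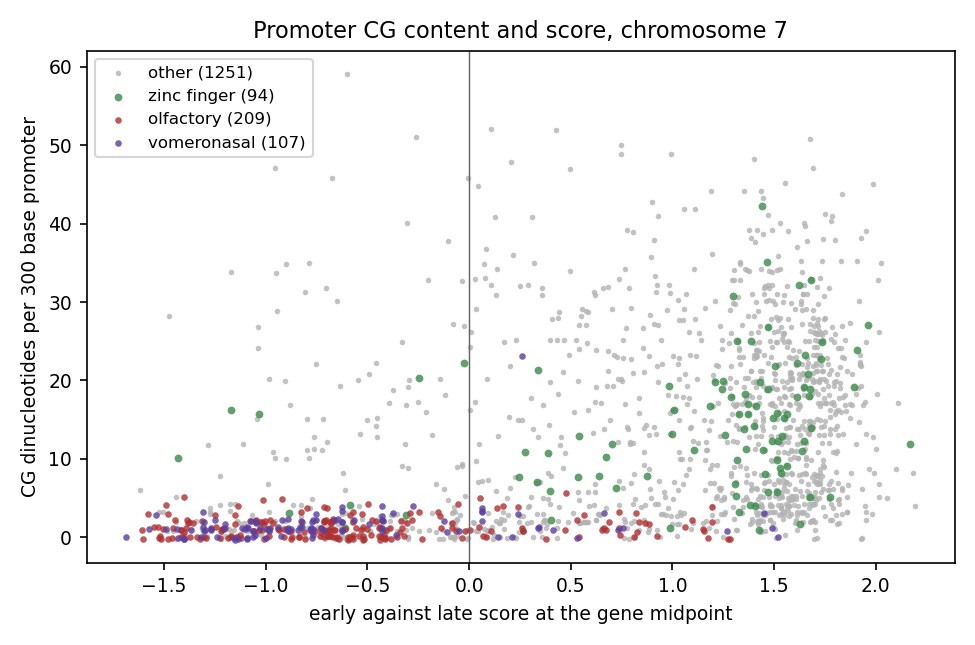
Each point is a protein-coding gene of chromosome 7, with its score on the horizontal axis (no unit) and the number of CG dinucleotides in its 300 base promoter on the vertical axis, slightly scattered so that equal counts can be seen; green marks zinc finger, red odorant, violet vomeronasal and grey other genes, with their numbers in brackets. CG-rich promoters lie mostly at scores above 1, while the receptor genes lie along the bottom at all scores.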

How the data were processed

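The reads were aligned with Bowtie2 to mm10, per the submitters' processing notes. The values are a score per position that the authors deposited, made from the pair of libraries and smoothed with a 300 kb window, per the name of the table; how reads were counted and scaled, and the score's log base and zero, is not stated in any source used here. Chromosome 7 had 20012 positions with a value, and 4 positions of the table without one were left out. Columns of per-sample values left unused numbered 0.

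Genes came from the RefSeq table of GRCm38.p6, whose coordinates are those of mm10, after 10 scaffold or alternate entries listed under chromosome 7 were left out. A gene was given the score of the position closest to its midpoint if that lay no more than 100 kb away (median 1.56 kb). A gene inside a gap could thus take the value of the gap's edge. Exon and intron structure was not used here. A domain was a stretch of positions with the same sign, at least 300 kb long and broken at gaps of over 300 kb. Clusters joined members of a list not more than 1 Mb apart. Promoter and microRNA sequences were matched by symbol and name, and 1742 of 2025 protein-coding genes had a promoter. Where a gene had several starts, the most upstream was used.

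Genes named are all members of the imprinted, globin and landmark lists, the highest and lowest of other lists and clusters, genes at extreme positions, in the 3 longest domains of each kind, at least 300 kb long, or with ends over 1.5 apart. Neighbours that show a slope along a cluster, and genes in gaps and at boundaries, were named after their values were seen. A few genes are counted in their lists but not reported by name here. Members and lists were chosen with earlier results of these data known. No test between conditions was possible. The domain and transition code was tested on a simulated step profile without noise, with edges placed away from gaps. Gap handling and passage widths were not checked by it. Python 3.11.15, numpy 2.4.6, pandas 2.3.3, scipy 1.17.1 and matplotlib 3.10.9 were used. Alternatives were other zero points, gene ends, run lengths, window sizes, distances and 1 position per 300 kb. The transcription start as the place to read a gene was added after the data were seen.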

Additional observations from a re-analysis of the deposited data

How the results depend on the processing

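When the median of the autosomes was taken as zero, 58.1% of the positions of chromosome 7 and 75.9% of its protein-coding genes lay above it, and the medians of the Peg3 segment, the Nlrp genes and the keratin-associated genes turned positive, at 0.23, 0.29 and 0.23. With 1 position per 300 kb the chromosome's median was -0.061. Without a minimum run length the median late domain measured 0.662 Mb and the median early one 0.684 Mb. Over all annotated genes 59.2% lay above 0. With a change of at least 2 there were 24 transitions. Read at the higher-coordinate end the Peg3 median was 0.017, and read at the lower end the Nlrp median was 0.022. Counting members within 300 kb as a single place gave 0.20 for the pregnancy-specific glycoprotein genes, 0.022 for the Nlrp genes and -0.41 for all imprinted genes. Each of 203 alternatives to the 29 list medians was set beside the 95% order-statistic interval of the list's median over its genes. For the smallest lists the full range of their genes was used in its place. Of the alternatives 175 stayed within, 20 left with the same sign and 8 reversed sign. Genes in a cluster share smoothed values, so staying within is only a rough guide. No paired analysis was possible because the deposited table holds 1 score for the single early and late library. Depth is unknown, so no counting error can be given, and smoothing over 300 kb limits what can be said of single genes.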
